A study of Mus musculus with 16 samples.

Results

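Gamma delta T cells were picked out of single-cell profiles of CD45+ cells sorted from mouse tumors. A barcode was counted as a gamma delta T cell when it held at least 2 unique molecular identifiers (UMIs, which tag single mRNA molecules) of Cd3d, Cd3e and Cd3g together and at least 2 of Trdc, the constant segment of the T cell receptor delta chain, with no UMI of Cd4, Cd8a, Cd8b1, Ncr1 or Foxp3 and at most 1 of the cycling genes Mki67 and Top2a. This gate held 94 of 16350 kept barcodes, a share of 0.575% (95% exact binomial interval 0.465 to 0.703%). Of the 94 cells, 5 came from MC38 tumors and 89 from Panc02-SIY tumors. The cells were chosen by measured UMIs of these genes, so the levels of the gate's own genes are described here and not tested.

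Gamma delta T cells carry a receptor of a gamma and a delta chain in place of the alpha and beta chains of conventional CD4 and CD8 T cells, and most of them respond without classical MHC presentation. In mice many leave the thymus already committed, either to a type 1 program with interferon gamma, T-bet and granzymes or to a type 17 program with the IL-23 receptor, the scavenger receptor gene Cd163l1 and interleukin-17. Both kinds have been found in mouse tumors, where the first is known for killing of target cells and the second for recruitment of neutrophils.

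The tumors were MC38 (a colon carcinoma line) or Panc02-SIY (a pancreatic carcinoma line that carries the SIY model antigen), grown under the skin of the flank of C57BL/6J mice until about 5 mm across. They were left untreated (NT) or given 1 dose of 12 Gy image-guided radiation (RT), and live CD45+ cells were sorted at 24 h and profiled with the 10x 3′ kit. Each of the 4 groups (MC38 NT, MC38 RT, Panc02-SIY NT and Panc02-SIY RT) had 4 libraries. Total UMIs per library ranged from 3240877 to 10121198 for MC38 and from 5327146 to 43776342 for Panc02-SIY. Sources on the study differ on the number of animals, which in the methods is lower than the 4 libraries of a group, and the labels do not tie libraries to animals. Some libraries of a group may therefore share an animal, n counts libraries throughout, and p-values measure the spread between libraries and may be too small.

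The MC38 libraries stood apart from the others in their barcodes. Between 2 MC38 libraries, a median of 766.5 barcode strings passed the quality filters in both, 88.3% of the smaller library, against 20.5 strings (1.91%) for a pair of Panc02-SIY libraries and a median of 0 between the tumor lines. Only the copy with the most UMIs was kept, which left 1596 of 7360 passing MC38 barcodes (21.7%) and 14754 of 14945 passing Panc02-SIY barcodes (98.7%). The barcode strings of 4 of the 5 MC38 gamma delta T cells were also present in another MC38 library. With at most 1 such cell in any MC38 library, gene expression was compared in the 8 Panc02-SIY libraries only, with 28 NT and 61 RT cells.

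Receptor genes that the gate did not use were counted in the same cells. A UMI of a gamma chain constant segment (Tcrg-C1, Tcrg-C2 or Tcrg-C4) was present in 84 of the 94 cells (89.4%), and a UMI of a gamma or delta variable segment in 68. Tcrg-C4 was found in 66 cells, Tcrg-C1 in 54 and Tcrg-C2 in 53, while Tcrg-C3 was at 0. Some of the gamma constant segments are near copies of each other, so the split between those is uncertain. In CD8 T cells the shares were 1.75% for Tcrg-C4, 2.69% for Tcrg-C1 and 17.01% for Tcrg-C2, and in NK cells 7.77%, 1.32% and 0.992%. Of the variable segments, Trgv2 was found in 44 cells, Tcrg-V1 in 23, Tcrg-V4 in 7 and Tcrg-V6 in 2, and Tcrg-V5 and Tcrg-V7 were at 0. Trgv2 was also present in 13.7% of CD8 T cells and Tcrg-V1 in 0.203%. The delta segments Trdv4 and Trdv2-2, in 6 and 3 gated cells (6.38% and 3.19%), were more frequent in NK cells (17.7% and 7.93%) and do not mark the gated cells. Trdv1, the most frequent delta variable segment (8 gated cells, 8.51%), was in 0.102% of CD8 T cells and 0% of NK cells, and Trdv5, in 3 gated cells, was at 0% in both.

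Transcripts of the other T cell receptor were unequal. Trac, the alpha chain constant segment, had a UMI in 15 of the 94 cells, against 95.7% of CD8 T cells and 87.1% of conventional CD4 T cells. Trbc2, a beta chain constant segment, was present in 82 of the 94 cells (87.2%) and Trbc1 in 58. These values came from the same droplets as the gate, and 10 of the 94 cells had no gamma constant UMI.

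Trdc UMIs were also counted outside the gate, as a background. Whether they came from free RNA or from the counted cells was not tested. The count describes the gate's own condition and is no support for the label. Among barcodes outside the gate, at least 2 Trdc UMIs were present in 0.477% of 3980 CD8 T cells, 0.273% of 366 conventional CD4 T cells, 0.310% of 2902 C1q macrophages and 0 of 148 B cells, at median depths of 7089, 5434, 13024.5 and 3488 UMIs against 5813.5 for gamma delta T cells. NK cells were higher, with at least 2 Trdc UMIs in 6.28% of 1210 cells and at least 1 in 20.2%. Of the 659 barcodes that met every other condition, 551 had no Trdc UMI, 14 had 1, 15 had 2, 17 had 3 and 62 had 4 or more. Just outside the threshold, 11 of the 14 barcodes with 1 UMI had Tcrg-C1 or Tcrg-C4 and 6 had Trac. Just inside it, 12 of the 15 barcodes with 2 UMIs had Tcrg-C1 or Tcrg-C4 and 3 had Trac. With no Trdc UMI, 28.1% had Tcrg-C1 or Tcrg-C4 and 70.2% had Trac.

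The share of gamma delta T cells was then compared over libraries. In Panc02-SIY NT tumors, gamma delta T cells were 0.350%, 0.599%, 0.441% and 0.257% of kept barcodes in replicates 1 to 4, from 3, 10, 6 and 9 cells. In Panc02-SIY RT tumors they were 1.36%, 0.497%, 1.07% and 0.703%, from 11, 9, 22 and 19 cells. Irradiated libraries 1, 3 and 4 were above every untreated library, and irradiated library 2 fell within the untreated range. The means were 0.412% ± 0.145 (SD, n = 4) and 0.910% ± 0.386 (SD, n = 4), a difference of 0.498 percentage points that did not pass the exact permutation test (two-sided p = 0.0571, adjusted over 4 contrasts p = 0.114). The smallest p that 4 against 4 libraries allow is 0.0286.

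The same cells were also set against T cells alone. Of barcodes with at least 2 CD3 UMIs, gamma delta T cells were 0.679%, 1.02%, 0.764% and 0.496% in the NT libraries and 4.03%, 1.03%, 2.58% and 1.60% in the RT libraries. The groups did not overlap, with irradiated library 2 just above untreated library 2. The means were 0.739% ± 0.217 (SD, n = 4) and 2.31% ± 1.31 (SD, n = 4), and the exact permutation test gave p = 0.0286, or 0.114 after adjustment over 4 contrasts.

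The denominators of this share also moved. CD3 barcodes were 55.0% ± 3.77 of kept barcodes in NT and 41.9% ± 6.05 in RT libraries (SD, n = 4 each, exact permutation p = 0.0286, adjusted over 6 measures p = 0.171). CD8 T cells were 29.7% and 21.9% (exact permutation p = 0.0857) and NK cells 6.40% and 11.8% (exact permutation p = 0.114), each with 4 libraries a group. Per 100 NK cells there were 7.89 gamma delta T cells in NT and 7.75 in RT libraries (exact permutation p = 0.971, n = 4 each). Per 100 CD8 T cells there were 1.37 in NT and 5.06 in RT libraries (exact permutation p = 0.0571, adjusted over 6 measures p = 0.171, n = 4 each). A gain of gamma delta T cells and a loss of other CD3 barcodes cannot be told apart from these shares.

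**Figure D1:**
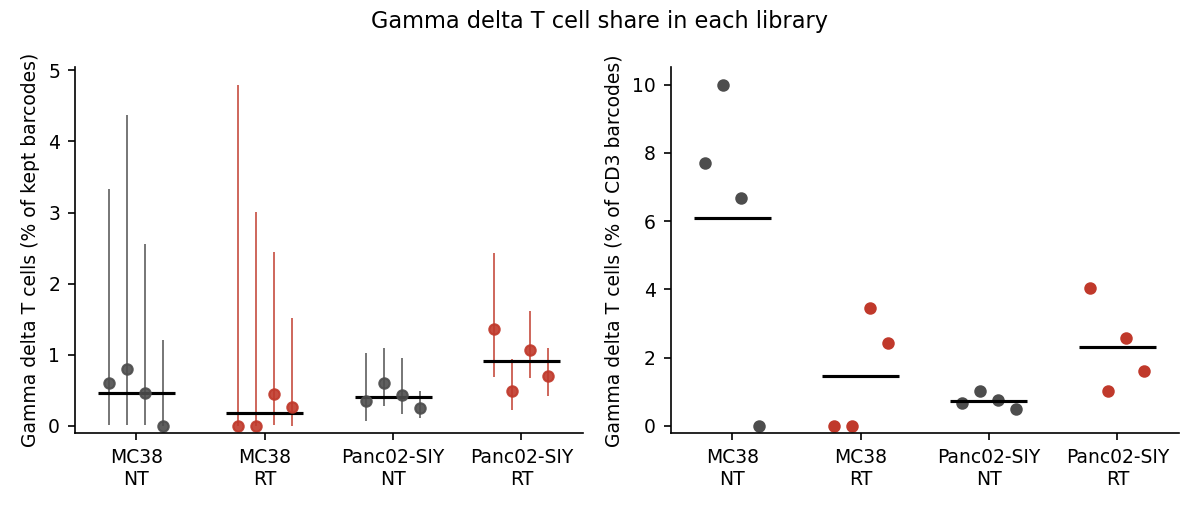
Gamma delta T cells in each of the 16 libraries as a percentage of kept barcodes (left, bars are 95% exact binomial intervals for counting error only) and of barcodes with at least 2 CD3 UMIs (right); points are libraries and black lines are group means. In Panc02-SIY tumors the mean moved from 0.412% (NT) to 0.910% (RT) on the left and from 0.739% to 2.31% on the right, while every MC38 point rests on 0 or 1 cell.

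In MC38 tumors the counts were too low for a comparison of levels. MC38 NT libraries held 1, 1, 1 and 0 gamma delta T cells (0.606%, 0.800%, 0.465% and 0%) and MC38 RT libraries 0, 0, 1 and 1 (0%, 0%, 0.444% and 0.274%). Where no cell was found, a count of 0 allowed a share of up to 0.984% in MC38 NT replicate 4, 4.00% in MC38 RT replicate 1 and 2.48% in MC38 RT replicate 2. The means were 0.468% ± 0.341 (NT) and 0.180% ± 0.219 (RT), SD with n = 4 each (exact permutation p = 0.2, adjusted p = 0.267). Intervals and floors cover counting error only.

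All 3 MC38 NT cells, and 4 of the 5 MC38 cells, also held at least 2 UMIs of genes that mark macrophages, B cells or neutrophils (Lyz2, C1qa, C1qb, Csf1r, Cd79a, Ms4a1, S100a8 and Csf3r). Such barcodes can be doublets or hold free RNA, and no doublet caller was run. When barcodes with those UMIs were left out of both the gate and the total, the MC38 difference (RT minus NT) turned from -0.288 to 1.32 percentage points (exact permutation p = 1.0, n = 4 each). It then rested on 1 cell, in MC38 RT replicate 3, with 7 to 19 barcodes left in each MC38 library. The Panc02-SIY difference became 0.827 percentage points, with exact permutation p = 0.0286 and adjusted p = 0.0571 (n = 4 each).

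Between the tumor lines, irradiated MC38 libraries were 0.730 percentage points below irradiated Panc02-SIY libraries (exact permutation p = 0.0286, adjusted p = 0.114, n = 4 each). Untreated libraries of the lines differed by 0.0559 percentage points (exact permutation p = 0.743, n = 4 each), MC38 being higher. That direction turned with every barcode kept (-0.283, exact permutation p = 0.0571, adjusted p = 0.0762), without other-type barcodes (-0.556, exact permutation p = 0.0286, adjusted p = 0.0571) and without MC38 NT replicate 2 (-0.0548, exact permutation p = 0.857). The MC38 side of both rests on the deduplicated barcodes described above.

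The cells were next divided by program, from UMIs of 8 type 1 genes (Ifng, Tbx21, Eomes, Gzma, Gzmb, Prf1, Klrd1 and Klrk1) and 6 type 17 genes (among them Il17a, Il17f, Il23r, Cd163l1 and 5830411N06Rik). With a minimum of 2 UMIs for a program, 78 of the 94 cells (83.0%) were type 1, 3 were type 17, 6 met both and 7 met neither. Type 1 UMIs per cell had a median of 10.5 and reached 81, and 11 cells lay at 1 or 2 UMIs, next to the threshold. Type 17 UMIs were at 0 in 84 of the 94 cells, and 1 cell each lay at 1 and at 2 UMIs. A minimum of 2 UMIs is reached more easily by deeper cells, which ranged from 985 to 27152 UMIs.

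Genes outside the class rule were then counted in the type 1 cells. Of the 78, 72 had a UMI of Ly6c2, which encodes the surface protein Ly6C, and 68 a UMI of Tcf7, a transcription factor of naive and memory T cells. Cd27, a costimulatory receptor that marks type 1 gamma delta T cells, was found in 48 of them. Of the genes that define the class, Gzmb, a cytotoxic protease, was found in 54 and Ifng in 29. Klrb1c, which encodes the NK receptor NK1.1, was present in 26 of all 94 cells.

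Type 17 transcripts were concentrated in few cells. Cd163l1, which is itself a gene of the class rule, gave 54 UMIs in 8 cells. Of these UMIs, 53 lay in the 9 cells that met the type 17 minimum, which follows largely from that rule. Those 9 cells came from 6 Panc02-SIY libraries, 3 of them from NT and 6 from RT tumors. Il17a was found in 1 cell alone, with 24 UMIs, in Panc02-SIY RT replicate 1. That cell had 11 Cd163l1 UMIs and also 97 UMIs of the macrophage, B cell and neutrophil check genes. Il23r was found in 3 cells, while Il17f, Il22 and Ccr6 were at 0 in all 94 cells. Over libraries with at least 5 gamma delta T cells, the type 17 class made up 4.72% ± 3.73 (SD, n = 4) of RT cells and 0% of NT cells in 3 libraries (exact permutation p = 0.229).

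**Figure D2:**
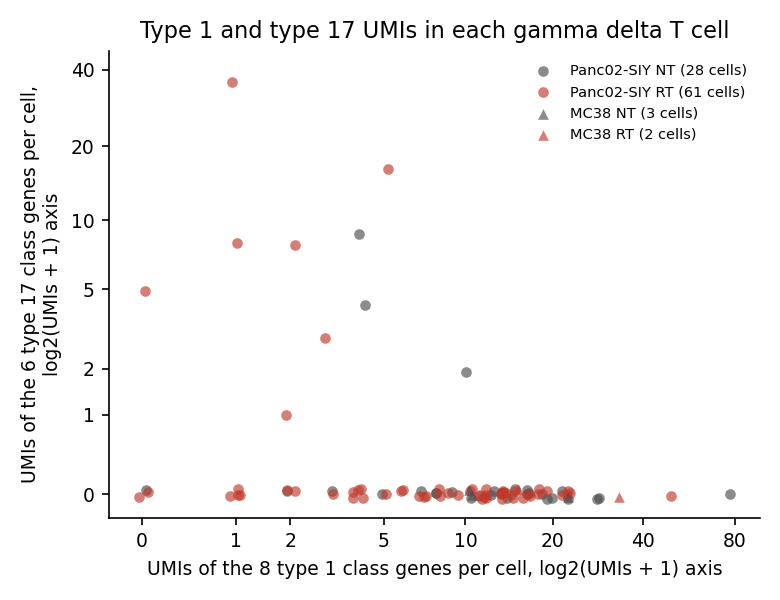
Each point is 1 of the 94 gamma delta T cells, placed by its UMIs of the 8 type 1 genes (horizontal) and the 6 type 17 genes (vertical), both on log2(UMIs + 1) axes with a small random shift so that points at the same whole number do not hide each other. Most cells lie along the bottom, where 84 of the 94 have no type 17 UMI, and the uppermost cell is the 1 that held Il17a.

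To see how gamma delta T cells differed from other lymphocytes of the same tumors, their UMIs were summed per library and compared with those of CD8 T cells, conventional CD4 T cells and NK cells by edgeR's quasi-likelihood test with library as a term. Genes with a fold above 1.3 and an adjusted p (Benjamini-Hochberg) under 0.1 were called. The gates of the other populations were set on CD3 genes, Cd8a and Cd8b1, Cd4, Trdc, Ncr1, Foxp3, Mki67 and Top2a, so those genes are left out of the results. Levels are given as normalised CPM, counts scaled to a common library total after TMM scaling (which sets aside extreme genes when libraries are scaled). Values given as CPM alone are a gene's share of all UMIs of the population on the same scale, without TMM.

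Against CD8 T cells, gamma delta T cells had more transcripts of genes for naive state and recirculation and fewer of effector and checkpoint genes. Of 8130 genes tested, 350 were higher (4.31%) and 715 lower (8.79%), 13.1% in all. This balance depended on scaling: by library size alone 490 were higher and 441 lower, and by RLE scaling 475 and 450. It moved the other way after thinning to 1500 UMIs per cell, with 76 higher and 439 lower among 4124 genes tested. The median of all genes was -0.17 on the log2 scale with TMM and -0.01 with RLE, so the values below are read against that shift.

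All 7 tested genes of the naive and recirculation list were higher in gamma delta than in CD8 T cells, with a list median log2 difference of 2.43 against -0.17 for all genes. Tcf7 ranged from 102.2 to 471.3 normalised CPM over 8 libraries (median 371.8) in gamma delta T cells and from 22.1 to 83.5 (median 44.4) in CD8 T cells. Lef1, its transcription factor partner, ranged from 39.3 to 245.3 (median 95.8) and from 11.2 to 38.1 (median 20.3). In both genes the lowest gamma delta value was above the highest CD8 value. The log2 differences were 3.01 (SE 0.203, adjusted p = 1.29e-46) and 2.44 (SE 0.329, adjusted p = 1.26e-11) in edgeR's quasi-likelihood test.

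The other genes of that list moved the same way. S1pr1, the sphingosine receptor that lets lymphocytes leave tissue, ranged from 146.5 to 525.8 in gamma delta T cells and from 19.0 to 118.7 in CD8 T cells, with no overlap. Its log2 difference was 2.43, and that of Klf2, a transcription factor that drives S1pr1, was 1.83. Ccr7, the chemokine receptor for lymph node entry, differed by 1.74, and Satb1, a chromatin organiser, by 0.76. Among chemokine receptors outside that list, Cxcr4 differed by 2.88 and Cxcr6, a receptor of tissue-resident T cells, by -2.38.

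Of 18 type 1 genes tested, 13 were lower in gamma delta than in CD8 T cells and 1 was higher (list median -1.15). Prf1, which encodes perforin, ranged from 0 to 63.7 (median 22.5) in gamma delta T cells and from 218.1 to 625.5 (median 331.6) in CD8 T cells. Gzmb ranged from 224.9 to 614.5 (median 394.5) and from 732.5 to 1856.4 (median 1383.1). Neither gene overlapped between the populations. The log2 differences were -3.49 for Prf1 and -1.66 for Gzmb, and they were -3.12 for Gzma, another granzyme, and -2.59 for Ifng. Nkg7, a protein of cytotoxic granules, and the chemokine gene Ccl5 were -1.46 and -1.36. The genes of the type 1 transcription factors were not called: Tbx21 differed by -0.26 (adjusted p = 0.645) and Eomes by 0.88 (adjusted p = 0.209).

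Ly6c2 was the type 1 gene that was higher. It ranged from 1086.7 to 2168.7 normalised CPM (median 1465.2) in gamma delta T cells and from 305.1 to 786.1 (median 603.6) in CD8 T cells, without overlap, a log2 difference of 1.5 (SE 0.125). The order of the 4 lymphocyte populations for this gene, with the others, is shown in the plots of summed UMIs.

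Checkpoint and costimulatory receptors were mostly lower, with 12 of 18 genes lower, 1 higher and a list median of -1.66 (-1.39 with genes at 0 set to their bound). Lag3, an inhibitory receptor, ranged from 0 to 81.8 (median 27.3) in gamma delta T cells and from 515.6 to 756.5 (median 602.3) in CD8 T cells. Pdcd1, which encodes PD-1, ranged from 0 to 29.3 (median 14.3) and from 167.0 to 304.8 (median 219.8). Every gamma delta library was below every CD8 library for both. The log2 differences were -4.54 for Lag3, -3.92 for Pdcd1, -4.50 for Ctla4 and -5.13 for Havcr2, which encodes the inhibitory receptor TIM-3. Tox, a transcription factor of exhausted CD8 T cells, differed by -1.85, and Entpd1, the ectoenzyme CD39, by -2.54.

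Some receptors were at or near 0. Tigit had 0 UMIs in gamma delta T cells against 331 in CD8 T cells, at least 2.16-fold lower when 3 counts over all libraries are taken as the floor. Tnfrsf4, which encodes OX40, had 2 UMIs, a ratio of pooled CPM (CD8 over gamma delta) of 20.6 (counting interval 5.69 to 170.2). Cd160, a receptor of cytotoxic lymphocytes, was the 1 gene of the list called higher, by 0.74, and that call was lost after thinning to 1500 UMIs per cell (adjusted p = 0.253) and without Panc02-SIY NT replicate 4 (adjusted p = 0.250).

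Receptor genes that the gate did not use were also compared. All 4 tested gamma chain genes were higher in gamma delta than in CD8 T cells, with log2 differences of 6.32 for Tcrg-C4, 4.84 for Tcrg-C1, 1.48 for Trgv2 and 1.35 for Tcrg-C2. The Trgv2 call was lost after thinning (log2 0.52, adjusted p = 0.657). Tcrg-C2 and Trgv2 overlapped between the populations, and CD8 T cells held them at medians of 61.2 and 37.8 normalised CPM. Trac differed by -4.90, and Trbc2 and Trbc1 differed by -1.69 and -1.10. Of 10 tested signaling genes of the CD3 list other than the gate's own, 8 were lower, among them Cd5 (-2.63) and Cd6 (-2.81), receptors that dampen T cell receptor signals.

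The called genes with the largest positive differences included, in all 8 libraries, Rbpms, which encodes an RNA-binding protein (4.59), Zbtb10, a zinc finger gene (4.06), and Cxxc5, a CXXC zinc finger gene (3.06). Rbpms ranged from 52.4 to 175.3 normalised CPM in gamma delta T cells and from 1.46 to 5.90 in CD8 T cells. Klrb1c (3.5) and Treml2 (3.4), a receptor of the TREM family, were higher in 7 of 8 libraries. Klrb1c is 1 of 5 tested NK markers, of which Klrb1c and Klra7 were higher and Klre1 and Klri2 lower (list median 0.49). The Klri2 call was lost in 9 alternatives besides a stricter threshold, by RLE scaling (adjusted p = 0.171) for example. All 10 genes with the largest negative differences had 0 gamma delta UMIs. Among them Gm156 was at least 42.1-fold lower and Zbtb32, a zinc finger gene induced by T cell activation, at least 8.65-fold lower.

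Smaller lists were mixed. Of 15 immediate early genes 5 were higher, among them Jun (1.49) and Fos (1.21), and 2 were lower. Of 8 tissue residency genes, Cd69 and Rgs2 were higher and Cxcr6, Prdm1 and Itga1 lower, with the Rgs2 call lost after thinning (adjusted p = 0.270) and without NT replicate 2 (adjusted p = 0.138). Of the wider type 17 list, 2 of 5 tested genes were higher, Tmem176b, an ion channel gene (2.99), and Ramp1, a receptor subunit for the neuropeptide CGRP (2.42), while the type 17 class genes themselves did not pass the filter.

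Cytokine genes were also lower than in CD8 T cells, with 9 of 15 secreted cytokine genes lower and none higher (list median -1.36). The chemokine genes Ccl3 and Ccl4 differed by -3.18 and -3.70 in all 8 libraries. Csf1, the macrophage growth factor, had 3 UMIs in gamma delta T cells, a pooled ratio (CD8 over gamma delta) of 28.0 (counting interval 9.57 to 135.7).

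**Figure D3:**
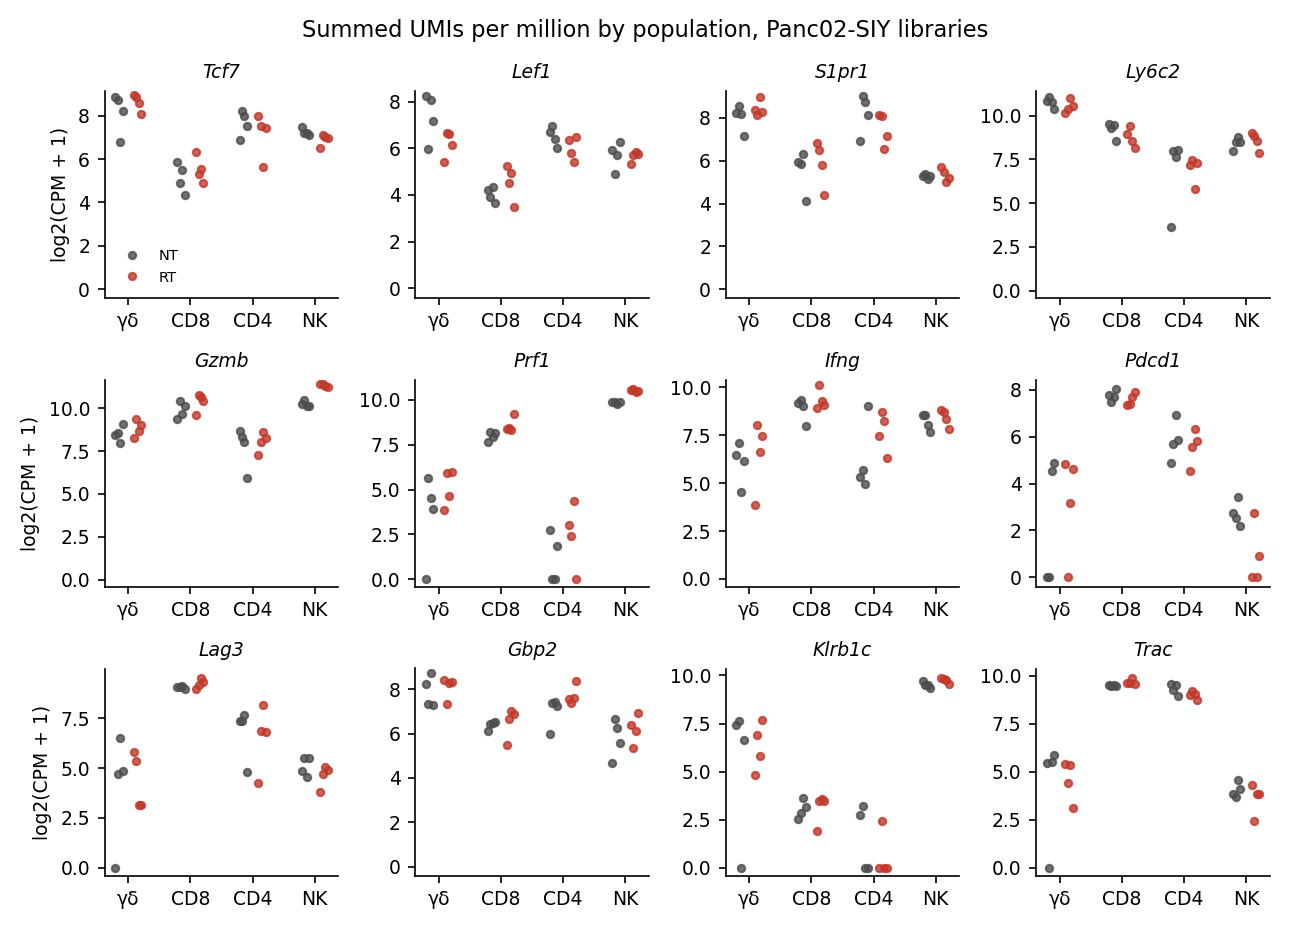
Summed CPM of 12 genes in gamma delta (γδ), CD8, CD4 and NK populations of the 8 Panc02-SIY libraries, on a log2(CPM + 1) axis; each point is 1 library, grey for NT and red for RT. Tcf7, Lef1 and S1pr1 in γδ cells lie above all CD8 points, and Prf1, Pdcd1, Lag3 and Trac lie below them.

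Part of the interferon-stimulated list was higher than in CD8 T and NK cells. Against conventional CD4 T cells 1 of 41 tested genes was higher and 2 were lower (list median 0.11 against -0.05 for all genes). Of 46 genes tested against CD8 T cells, 19 were higher and 1 (Ly6a) lower, with a list median of 0.56 against -0.17 for all genes. The Ly6a call (adjusted p = 0.0829, edgeR) was lost by RLE scaling (0.214), by library size alone (0.231), without other-type barcodes (0.163), with a gamma constant UMI in the gate (0.195) and without NT replicate 1 or 2 or RT replicate 3 or 4 (0.138 to 0.214). Against NK cells 25 of 46 were higher and none lower, with a list median of 0.97 against -0.13, and 23 of 40 were higher without barcodes with other-type UMIs. The count against CD8 T cells was 12 of 51 without a filter on low counts, 5 of 33 after thinning, 25 of 46 by library size alone and 18 of 43 without barcodes with other-type UMIs. Many of these genes belong to families of close copies, whose members can share reads.

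Gbp2, a guanylate-binding protein that acts on intracellular pathogens, ranged from 149.0 to 388.4 normalised CPM (median 268.7) in gamma delta T cells and from 45.4 to 131.0 (median 102.6) in CD8 T cells, with no overlap. Its log2 difference was 1.37 (SE 0.202, adjusted p = 7.30e-10 in edgeR's quasi-likelihood test with Benjamini-Hochberg adjustment). Slfn5, of the Schlafen family, differed by 2.22, Oasl2, of the oligoadenylate synthetase family, by 2.86 and Rsad2, which encodes the antiviral protein viperin, by 2.19. Oas3, another oligoadenylate synthetase, differed by 1.95 in 8 of 8 libraries. Slfn5, Oasl2 and Rsad2 were higher in 7, 5 and 5 of 8 libraries, and DESeq2 did not call Rsad2 (log2 1.63, adjusted p = 0.142).

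Promoters of the list were searched on either strand for GAAA repeated after a gap of 2 bases of any kind, the core of the element bound by interferon-activated factors, from 250 bases before to 50 after each gene's start (RefSeq, GRCm38.p6). They were present in 22 of the 36 list genes with a promoter window (61.1%), and in 3.99% of 27025 genes overall. Of 13 genes with a window that were higher in gamma delta T cells than in both CD8 T and NK cells, 10 held them (76.9%), and of the other 23 genes of the list, 12 did (52.2%). The 4 stretches below show where the letters lie in the called genes with a match and the smallest adjusted p against CD8 T cells. They are written along the gene's strand and have the matched letters in capitals (TTTC repeated after the same gap where the match is on the opposite strand). A match is a description of the sequence and not a measured binding site.
Slfn5, chr11:82951927-82951976, plus strand: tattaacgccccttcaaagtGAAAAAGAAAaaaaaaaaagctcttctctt
Gbp2, chr3:142620584-142620633, plus strand: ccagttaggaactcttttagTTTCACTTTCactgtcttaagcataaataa
Oas3, chr5:120777705-120777754, minus strand: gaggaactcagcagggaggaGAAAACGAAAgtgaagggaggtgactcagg
Rsad2, chr12:26456543-26456592, minus strand: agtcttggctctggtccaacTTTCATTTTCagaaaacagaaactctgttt

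Markers of macrophages and monocytes moved with the population difference, with 3 of 10 tested genes higher in gamma delta than in CD8 T cells, Csf1r by 1.87, Fcgr1 by 1.64 and Ms4a7 by 1.09. The Ms4a7 call was lost with DESeq2 (adjusted p = 0.467), without a filter on low counts (0.152) and without RT replicate 1 (0.228), RT replicate 4 (0.203) or NT replicate 2, where its difference was 0.41 (0.759). Against NK cells 2 of 9 tested macrophage and monocyte markers were higher, Csf1r (1.76) and Ms4a7 (1.38), and 1 was lower (list median 1.38). Those calls were lost without RT replicate 3 (Csf1r, adjusted p = 0.204) and without RT replicate 1 (Ms4a7, adjusted p = 0.333). Of 2 tested dendritic cell markers H2-Ab1, an MHC class II gene, was higher (1.33), and without barcodes with other-type UMIs it was -0.59 (adjusted p = 0.622). The part of these markers in the interferon-stimulated differences was not tested beyond the counts of 18 of 43 and 23 of 40 genes given above, which leave out the barcodes with at least 2 other-type UMIs.

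Against conventional CD4 T cells, gamma delta T cells had more transcripts of most type 1 genes and fewer of most checkpoint and costimulatory receptors. Of 5266 genes tested, 127 were higher (2.41%) and 272 lower (5.17%), 7.58% in all, and 10 of 16 type 1 genes were higher with 1 lower (list median 1.14 against -0.05 for all genes). Ly6c2 ranged from 1208.2 to 2434.9 normalised CPM (median 1593.2) in gamma delta T cells and from 12.4 to 292.6 (median 184.0) in CD4 T cells. Nkg7 ranged from 902.5 to 1774.8 (median 1337.8) and from 424.2 to 755.8 (median 568.5). The ranges of both genes were apart, with log2 differences of 3.43 and 1.15.

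Xcl1, a chemokine gene that attracts cross-presenting dendritic cells, differed by 4.38 in 8 of 8 libraries, and its gamma delta level ranged widely, from 43.7 to 2857.1 normalised CPM. Ccl5 differed by 3.11 (adjusted p = 0.0698), and that call was lost in 8 alternatives besides a stricter threshold, among them without Panc02-SIY NT replicate 1 (adjusted p = 0.152). Cd160 (5.01), Txk, a kinase of T cell receptor signaling (2.40), Spry2, an inhibitor of growth factor signaling (4.15), and Cd7, a surface protein of T and NK cells (3.69), were higher in 8 of 8 libraries.

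Of 15 checkpoint and costimulatory receptors, 10 were lower than in CD4 T cells and 1 was higher (list median -1.50). Of 12 secreted cytokine genes, 6 were lower and 2 higher, with Xcl1 and Ccl5 as those higher. Tnfrsf4 had 2 UMIs, with a pooled ratio (CD4 over gamma delta) of 131.3 (counting interval 36.2 to 1085.6). Among single genes, Cd40lg, which encodes the CD40 ligand, differed by -4.23, Csf2, which encodes the cytokine GM-CSF, by -5.35 and Ctla4 by -4.07. Of the naive and recirculation list, 2 of 7 genes were higher, among them Satb1 by 0.84. In the wider type 17 list, 3 of 5 tested genes were lower, Maf (-2.18), Rora (-1.99) and Ccr2. There, 1 gene was higher, Tmem176b, and the list median was -1.73.

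Against NK cells, gamma delta T cells were lower in killing genes and higher in genes of T cell identity and homing. Of 7417 genes tested, 258 were higher (3.48%) and 509 lower (6.86%), 10.3% in all, and by RLE scaling 347 were higher and 390 lower. After thinning to 1500 UMIs per cell, 76 were higher and 253 lower among 3293 genes tested. In the main fit, 13 of 18 type 1 genes were lower and 1 higher (list median -1.18 against -0.13 for all genes). Prf1 ranged from 0 to 66.2 normalised CPM (median 23.3) in gamma delta T cells and from 936.1 to 1622.0 (median 1217.6) in NK cells. Gzma ranged from 0 to 907.0 (median 98.4) and from 6602.0 to 11606.0 (median 8860.8). NK cells were higher in every library, by -5.19 and -5.62 as log2 gamma delta over NK, and the difference for the transcription factor gene Eomes was -2.88. All 8 tested NK markers were lower, including Klrb1c (-2.94) and Klra8 (-5.38), which encodes a Ly49 receptor.

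Among the genes higher than in NK cells were Bcl11b, a transcription factor of T cell commitment (4.01), Il7r, the interleukin-7 receptor (3.1), and Il6st, the shared receptor chain of interleukin-6 family cytokines (3.66). Bcl11b ranged from 58.4 to 357.5 normalised CPM in gamma delta T cells and from 3.79 to 22.7 in NK cells. Of the naive and recirculation list, 4 of 7 genes were higher and 1 was lower. Ccr7 was 4.38 higher and S1pr1 2.94 higher.

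**Figure D4:**
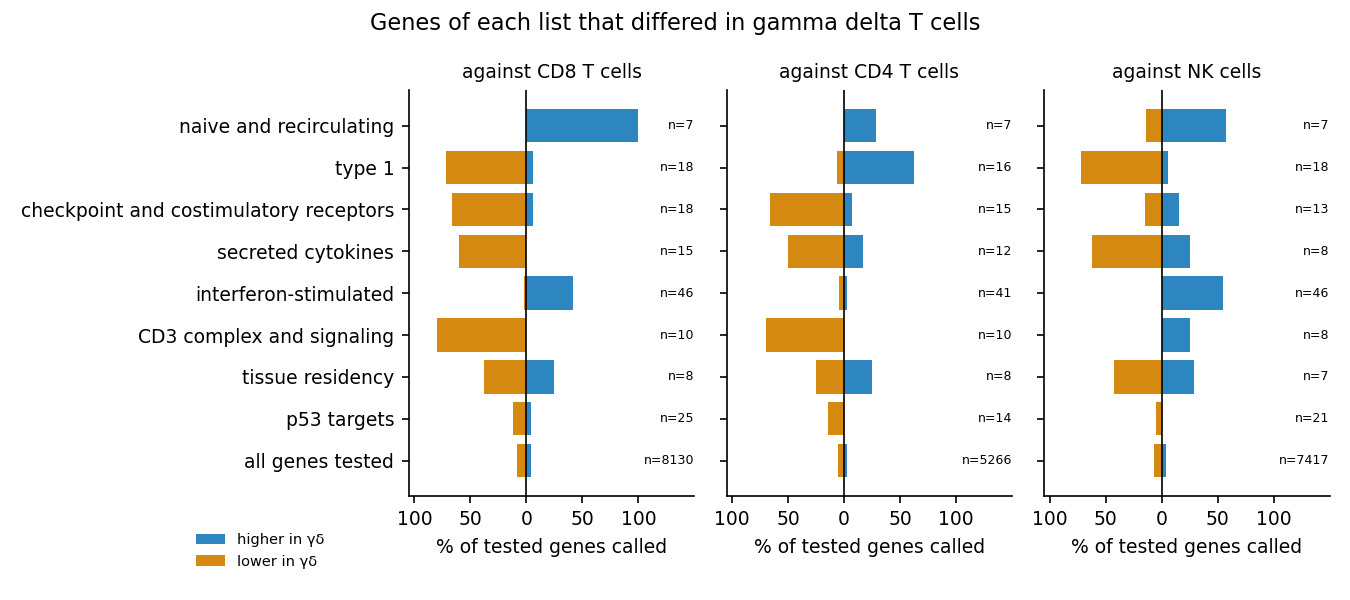
Percentage of tested genes of each list that were called higher (blue, to the right) or lower (orange, to the left) in gamma delta T cells against CD8 T, conventional CD4 T and NK cells of the 8 Panc02-SIY libraries, with the number of genes tested at the right; the last row holds all genes. Naive and recirculation genes were called higher in 7 of 7 against CD8 T cells, and type 1 genes fell on opposite sides against CD8 and CD4 T cells.

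The response of gamma delta T cells to radiation was tested in Panc02-SIY tumors, where the 4 NT libraries summed to 219163 UMIs and the 4 RT libraries to 376176. At this depth 1 of 3728 genes was called (0.0268%), with 247 at an unadjusted p below 0.05, and DESeq2 also called 1. The groups did not overlap for 152 genes (4.08%).

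The called gene was Cd7 (ENSMUSG00000025163), which was lower after radiation. Its normalised CPM was 553.5, 427.0, 517.4 and 984.9 in NT replicates 1 to 4 and 108.2, 204.2, 224.1 and 224.8 in RT replicates. All 4 irradiated libraries were below all 4 untreated libraries. The log2 difference was -1.68 (SE 0.326, adjusted p = 0.0233, edgeR's quasi-likelihood test with Benjamini-Hochberg adjustment). The call was lost without NT replicate 4 (adjusted p = 0.336), RT replicate 1 (0.381) or RT replicate 4 (0.102), without barcodes with other-type UMIs (0.183), with a Trdc minimum of 1 (0.318) and after thinning (0.474), with log2 differences from -1.75 to -1.20. In CD8 T cells of the same libraries, Cd7 was 141.7 CPM over all NT and 52.8 CPM over all RT cells.

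Targets of p53, the transcription factor that DNA damage activates, were at higher values in irradiated cells, in the summed list but without a call for any gene. Cdkn1a (ENSMUSG00000023067), which encodes the cell cycle inhibitor p21, had 0, 0, 0 and 3 UMIs in the NT libraries and 25, 1, 36 and 77 in the RT libraries. Libraries RT 1, 3 and 4 were well above all NT libraries, and RT 2 lay within the untreated range. The pooled ratio (RT over NT) was 27.0 (counting interval 9.05 to 132.5), and the log2 difference was 4.42 (SE 1.11), which was not called in edgeR's quasi-likelihood test (adjusted p = 0.433). It was called without a filter on low counts (adjusted p = 8.91e-10), with a replicate block (2.94e-07) and without RT replicate 2 (2.41e-07).

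A UMI of Cdkn1a was found in 27 of 61 RT cells (44.3%) and 2 of 28 NT cells (7.14%). Among cells with no UMI of the other-type check genes, the counts were 13 of 33 and 1 of 16. In CD8 T cells Cdkn1a went from 16.6 to 163.9 CPM, a ratio of 9.87 (counting interval 8.75 to 11.2). The difference in radiation change between the populations was not called (difference of log2 changes 1.23, SE 0.842, adjusted p = 1.00, edgeR).

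Other p53 targets were not called. Ccng1, which encodes cyclin G1, had 1, 4, 7 and 0 UMIs in NT and 28, 10, 13 and 47 in RT libraries, a pooled ratio of 4.76 (counting interval 2.60 to 9.52) and a log2 difference of 2.17 (adjusted p = 0.433, edgeR). Ccng1 was called without a filter on low counts (adjusted p = 0.00621) and without NT replicate 3 (log2 3.08, adjusted p = 0.0966). Every irradiated library held more Ccng1 UMIs than any untreated one, though the normalised levels overlapped. Mdm2, the ubiquitin ligase that limits p53, had 7 UMIs in NT and 43 in RT cells, a ratio of 3.58 (1.60 to 9.43). Phlda3, an inhibitor of AKT, had 0 UMIs in NT and 3, 1, 6 and 9 in RT libraries, at least 3.69-fold higher.

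Over the whole p53 list, 7 of 32 genes passed the filter and 0 were called. Some passed mainly through irradiated cells, such as Cdkn1a (3 UMIs in NT, 139 in RT) and Ccng1 (12 and 98). Positive log2 differences of the 7 genes were therefore favoured beforehand. Their signs (6 positive) and median (1.29, against 0.06 for all genes tested) decide nothing. The summed level of the detected list genes was 644.3, 1153.6, 1204.0 and 1022.6 CPM in NT and 2693.0, 1247.1, 2114.3 and 3493.0 CPM in RT libraries. RT replicate 2 was just above the highest NT library and the other 3 were well above it.

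Macrophage and monocyte markers also differed between these libraries. Their summed CPM was 43.0, 2902.5, 468.2 and 582.3 in NT and 3964.3, 321.8, 1643.6 and 3172.6 in RT libraries, with overlap, and RT replicate 2 was again the lowest of its group. When barcodes with at least 2 other-type UMIs were left out, the markers fell to 226.0 CPM or less in every library. The p53 list was then 644.3, 1092.2, 1152.8 and 1076.9 CPM in NT and 3477.9, 1191.5, 1915.0 and 3736.7 CPM in RT libraries, again without overlap.

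**Figure D5:**
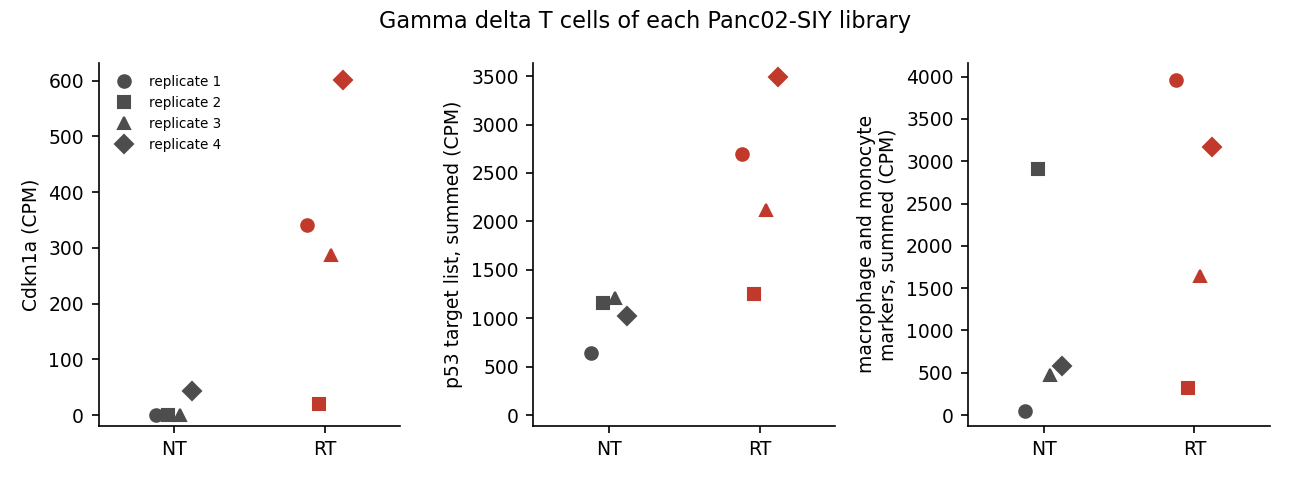
CPM of Cdkn1a (left), of the p53 target list (middle) and of macrophage and monocyte markers (right) in gamma delta T cells of the 8 Panc02-SIY libraries, with marker shape for the replicate number, grey for NT and red for RT. The p53 list is higher in all 4 RT libraries than in any NT library, with replicate 2 lowest in RT in all 3 panels, and the marker levels overlap.

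Other lists were described in the same way, with 0 genes called in each, beside 2036 positive log2 differences among all 3728 genes tested. Immediate early genes, which are induced within minutes of stimulation and also by tissue handling, had 13 of 14 positive log2 differences (median 0.45), and their summed CPM ran from 4939.7 to 5893.9 in NT and from 6316.1 to 8161.0 in RT libraries without overlap. All 7 tested BCL2 family genes, which set the threshold of apoptosis, were positive (median 0.76). Interferon-stimulated genes were positive in 25 of 38 (median 0.26), and their summed CPM overlapped, from 5519.8 to 8361.0 in NT and from 5592.0 to 9595.8 in RT libraries. Type 1 genes were positive in 6 of 16 (median -0.23). Macrophage and monocyte markers were positive in 7 of 7 tested genes (median 0.71) and dendritic cell markers in 2 of 2 (median 0.81). Among RT libraries, replicate 1 was highest and replicate 2 lowest for immediate early genes (8161.0 and 6316.1 CPM), as for macrophage markers. The part of these markers in the other lists was not tested. Here too, the filter may favour genes with more UMIs in irradiated cells.

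Single genes of those lists varied more between libraries. Xcl1 was 3278.7 normalised CPM in NT replicate 1, from 77 UMIs in 3 cells, and between 46.4 and 837.6 in the other 7 libraries. Ifng overlapped between the groups, from 24.6 to 162.0 in NT and from 15.5 to 295.0 in RT libraries.

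Last, the radiation change in gamma delta T cells was compared with that in CD8 T cells of the same libraries. Of 8986 genes tested, 2 were called (0.0223%), 1 higher and 1 lower (0.0111% each), with 432 at an unadjusted p below 0.05. Ptgs2, which encodes the prostaglandin synthase COX-2, had 0 UMIs in NT gamma delta T cells and 1, 1, 29 and 54 in RT libraries, at least 16.5-fold higher, and 12.2 and 17.2 CPM in NT and RT CD8 T cells. Rgs16, a regulator of G protein signaling that T cells induce on activation, had 1, 1, 8 and 4 UMIs in NT gamma delta T cells and 0 in RT, so that NT was at least 8.01-fold higher, and 291.5 and 435.5 CPM in NT and RT CD8 T cells. Both genes rest on few UMIs from few libraries. The Ptgs2 call was lost without NT replicate 3 or 4 or RT replicate 3 or 4 (adjusted p from 0.268 to 0.818, edgeR), and the Rgs16 call without NT replicate 3 (adjusted p = 0.502). Markers of macrophages and dendritic cells were also positive in this contrast (list medians 0.99 and 1.97), and their part in the Ptgs2 difference was not tested.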

How the data were processed

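The deposited 10x matrices hold UMI counts per gene and barcode, which the authors made with Cell Ranger 3.1.0 on mm10 after bcl2fastq 2.20.0, per the labels. Barcodes needed 500 or more genes and no more than 10% mitochondrial UMIs, and a string found in several libraries of a tumor line was kept only where its UMIs were highest. The gamma delta T cells and all gene lists were chosen with earlier results of these data known. No doublet caller was run.

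Counts were summed per library and population (libraries with at least 3 gamma delta T cells) and tested with edgeR 4.0.16 in R 4.3.3 (TMM, minimum count 3 and total 15, robust quasi-likelihood test, Benjamini-Hochberg), with DESeq2 1.42.0 as an alternative. Shares were tested by exact permutation over libraries (scipy 1.17.1, two-sided). Named genes were drawn from the called genes with the 10 largest differences each way and from called list members. Where a list had none, up to 4 of its most abundant genes were eligible. The receptor genes and a few p53, type 1 and type 17 genes were eligible in every comparison. Not every eligible gene is given, and single p53 targets are given for the radiation change only. Counting intervals are exact at 95%, and a floor is 3 counts. The edgeR fits of the radiation change and of gamma delta against CD8 T cells were tested on simulated counts. Alternatives covered scaling, filters, thresholds, depth (1500 UMIs per cell), the gate, shared strings and leaving out each library. The design text gives 4 animals a group and the study's methods fewer, and the labels do not tie libraries to animals. Results for some genes of the lists are not reported here.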

Additional observations from a re-analysis of the deposited data

Results flagged for a closer look

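Within groups of 4 libraries, 60 sets of values were checked for a library far from the others, and 7 were found, where chance gives about 1 in 20 for values spread without many zeros. For Cdkn1a, neutrophil markers and tumor and stroma markers the other 3 libraries were at 0, so that any single value would be found and that rate does not apply. All 7 lay in gamma delta T cells of Panc02-SIY tumors. In the NT group, replicate 4 stood out for Cdkn1a (50.9 normalised CPM) and Mdm2 (101.9 normalised CPM). Replicate 2 stood out for markers of neutrophils (62.0 summed CPM), dendritic cells (5060.8 summed CPM) and tumor and stroma (12.4 summed CPM). Replicate 1, with 3 cells, stood out for heat shock genes (4424.2 summed CPM). In the RT group, replicate 2 stood out for the alpha beta receptor constant genes (1146.6 summed CPM).

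The radiation change in the share of gamma delta T cells was compared between the tumor lines, and the difference was not stable. It was 0.786 percentage points of kept barcodes larger in Panc02-SIY than in MC38 tumors (exact permutation of treatment within each line, p = 0.0175, n = 4 in each group), and 6.19 percentage points of CD3 barcodes larger (exact permutation p = 0.0282, n = 4 in each group). These rest on 0 or 1 cell in each MC38 library. Without barcodes with other-type UMIs the difference in the share of kept barcodes reversed to -0.489 percentage points (exact permutation p = 1.0), and with every barcode kept it was 0.574 (exact permutation p = 0.0143), both settings chosen for this difference after seeing the data.

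The radiation change also differed between gamma delta and CD8 T cells for 2 genes in edgeR's fit. The fitted difference of log2 changes was -10.08 for Rgs16 and 10.58 for Ptgs2, and since a gamma delta group was at 0 UMIs these fitted values depend on the prior count and are no bounds.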

How the results depend on the processing

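Gamma delta T cells were few in every library. Percentage point differences in the share of gamma delta T cells ran, leaving out 1 library at a time, from 0.346 to 0.635 for Panc02-SIY RT minus NT, from -0.444 to -0.177 for MC38 RT minus NT, from -0.0548 to 0.212 for MC38 minus Panc02-SIY in NT and from -0.867 to -0.578 in RT, and for the share of CD3 barcodes in Panc02-SIY from 0.997 to 2.00. With every barcode kept in every library they were 0.503 (Panc02-SIY), -0.283 (NT lines) and -0.857 (RT lines), each with exact permutation adjusted p = 0.0762. With a Trdc minimum of 1 they were 0.597 (Panc02-SIY) and -0.866 (RT lines), each with exact permutation adjusted p = 0.0571. The main adjusted p was 0.114 for Panc02-SIY and for RT lines, so these settings moved both below 0.1. Without barcodes with other-type UMIs the differences were 0.827 (Panc02-SIY), 1.32 (MC38) and -0.556 (NT lines), and the Panc02-SIY change minus the MC38 change was -0.489. Per 100 NK cells, an alternative chosen after seeing the data, the Panc02-SIY difference was -0.146. The cause of these changes was not tested.

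Genes called for radiation in gamma delta T cells numbered 3 by library size alone, 18 without a filter on low counts, 2 with at least 5 cells a library, 7 with a gamma constant UMI in the gate (chosen after seeing the data), and 0 after thinning, without other-type barcodes and with a Trdc minimum of 1, with 0 to 13 when 1 library was left out. The replicate block gave 7 (4 higher, 3 lower). Replicate numbers do not pair the libraries, as same-numbered NT and RT libraries had correlations of their deviations of -0.076, -0.13, -0.0017 and 0.056. Against CD8 T cells DESeq2 called 670 genes (348 higher, 322 lower) and thinning 515, with 777 to 1101 leaving out 1 library. Against CD4 T cells there were 611 without a filter and 147 after thinning, with 354 to 439. Against NK cells there were 329 after thinning, with 601 to 801, and DESeq2 split its calls into 277 higher and 292 lower. The difference in response from CD8 T cells had 1 called gene at a minimum count of 10 and 0 to 28 leaving out 1 library. Of the single genes refitted under these alternatives, H2-Ab1 against NK cells reversed its direction, to -0.586 without barcodes with other-type UMIs, and no other did. Genes that did not pass the filter on low counts, such as Phlda3 for radiation, were not refitted. Fits of MC38 libraries or of type 17 cells alone could not be fitted, with at most 1 cell a library and 3 cells, and fits of Panc02-SIY libraries alone are those reported.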
